A study of Mus musculus with 12 samples.

Results

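This account follows 10 genes of the mouse MHC class I presentation pathway through 12 RNA-seq libraries of bone marrow-derived macrophages (BMDMs). The genes were taken by symbol: the class I heavy chains H2-K1, H2-D1 and H2-M2, the light chain B2m, the peptide transporter subunits Tap1 and Tap2, the loading factor Tapbp, and the immunoproteasome subunits Psmb8, Psmb9 and Psmb10. All 10 were found among the 48795 gene identifiers, and all 10 were among the 11228 genes that passed the filter on low counts and were tested. BMDMs were grown from the marrow of male mice 7 to 11 weeks old with the growth factor M-CSF for 8 to 10 days. Wild-type (WT) cells are labelled C57BL/6 (C57BL/6NJ in the methods), and Acod1-/- cells come from the strain C57BL/6NJ-Acod1em1(IMPC)J/J, which carries an edited Acod1 allele in every cell. Acod1 encodes the enzyme that makes itaconate. Each genotype had 3 groups of 2 libraries: vehicle (phosphate-buffered saline), urban particulate matter (PM) at 20 μg/cm2 for 24 hours, and the same PM after 2 hours of pretreatment with 0.25 mM 4-octyl itaconate (OI, a cell-permeable itaconate ester). No group received OI without PM, so the effect of OI was compared within PM-treated cells, and OI+PM against vehicle holds the effects of both treatments.

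Class I molecules carry peptides from proteins made inside the cell to its surface, where CD8 T cells read them. Proteasomes cut the proteins, the TAP transporter moves the peptides into the endoplasmic reticulum, tapasin holds the empty heavy chain and light chain beside TAP, and the filled complex leaves for the surface. Psmb8, Psmb9 and Psmb10 are the interferon-inducible catalytic subunits that take the places of Psmb5, Psmb6 and Psmb7 in the immunoproteasome, and macrophages are known to raise many genes of this pathway on inflammatory or interferon signals.

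Of the members, 8 lie in the MHC region of chromosome 17 and B2m and Psmb10 lie elsewhere. In GRCm38 the heavy chain genes span chr17:33996017-34000347 (H2-K1), chr17:35262730-35267499 (H2-D1) and chr17:37480851-37483552 (H2-M2), and B2m spans chr2:122147686-122153083. Psmb9 (chr17:34181987-34187764), Tap1 (chr17:34187553-34197225), Psmb8 (chr17:34197721-34201454) and Tap2 (chr17:34203527-34216321) follow one another, Tapbp lies at chr17:33915899-33929292 and Psmb10 at chr8:105935735-105938444. RefSeq promoter windows (GRCm38.p6, from 250 bases before the start of transcription to 50 after it) were at hand for 9 members. Shown, each on its own strand, are the windows of the 3 heavy chains, of B2m, of Tap1 from the transporter and of Psmb8 from the immunoproteasome. Capitals mark matches, on either strand, to GAAA and GAAA set 2 bases apart (an interferon regulatory factor element, held by 3.44% of 32851 promoter windows of 300 bases), TTCNNNGAA (an interferon-gamma activated site, 8.3%), GGG and TTCCC set 2 bases apart (a kappaB-like element, 1.75%) and TGACGC (part of the X box known from class I and class II genes, 7.4%).
H2-K1, chr17:34000298-34000597, minus strand: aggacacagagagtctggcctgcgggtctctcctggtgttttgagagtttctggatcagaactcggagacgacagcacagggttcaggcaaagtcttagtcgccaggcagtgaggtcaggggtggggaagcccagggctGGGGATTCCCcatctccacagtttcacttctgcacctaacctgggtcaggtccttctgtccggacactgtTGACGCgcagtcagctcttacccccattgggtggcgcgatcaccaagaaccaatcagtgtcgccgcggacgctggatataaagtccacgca
H2-D1, chr17:35262844-35263143, plus strand: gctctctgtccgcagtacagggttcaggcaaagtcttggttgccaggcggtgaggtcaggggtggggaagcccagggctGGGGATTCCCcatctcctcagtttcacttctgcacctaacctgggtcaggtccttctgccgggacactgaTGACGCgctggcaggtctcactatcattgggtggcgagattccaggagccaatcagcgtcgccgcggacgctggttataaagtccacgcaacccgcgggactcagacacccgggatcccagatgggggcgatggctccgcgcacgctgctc
H2-M2, chr17:37483505-37483804, minus strand: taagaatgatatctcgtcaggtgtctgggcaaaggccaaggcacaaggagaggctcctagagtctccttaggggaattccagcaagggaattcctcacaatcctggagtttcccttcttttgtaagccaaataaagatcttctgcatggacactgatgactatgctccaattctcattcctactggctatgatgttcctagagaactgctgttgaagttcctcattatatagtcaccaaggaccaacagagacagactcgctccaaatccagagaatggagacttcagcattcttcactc
B2m, chr2:122147437-122147736, plus strand: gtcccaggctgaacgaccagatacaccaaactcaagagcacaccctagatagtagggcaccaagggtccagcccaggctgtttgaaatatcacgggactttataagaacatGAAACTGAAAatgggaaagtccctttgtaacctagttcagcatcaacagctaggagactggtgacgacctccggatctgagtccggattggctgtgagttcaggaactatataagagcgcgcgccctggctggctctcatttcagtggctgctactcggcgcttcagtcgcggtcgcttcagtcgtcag
Tap1, chr17:34187306-34187605, plus strand: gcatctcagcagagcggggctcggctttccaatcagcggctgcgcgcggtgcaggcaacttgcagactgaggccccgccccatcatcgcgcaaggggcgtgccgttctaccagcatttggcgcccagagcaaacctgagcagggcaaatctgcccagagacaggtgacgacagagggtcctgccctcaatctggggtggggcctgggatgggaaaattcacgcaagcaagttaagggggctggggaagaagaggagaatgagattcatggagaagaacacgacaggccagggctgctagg
Psmb8, chr17:34197945-34198244, plus strand: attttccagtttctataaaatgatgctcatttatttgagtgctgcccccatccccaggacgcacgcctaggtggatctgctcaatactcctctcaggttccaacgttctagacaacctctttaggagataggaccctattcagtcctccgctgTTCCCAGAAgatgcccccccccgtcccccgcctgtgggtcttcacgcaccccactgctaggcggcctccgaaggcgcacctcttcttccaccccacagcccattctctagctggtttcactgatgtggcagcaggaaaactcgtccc
The windows of H2-K1 and H2-D1 held the same kappaB-like and TGACGC matches and shared an identical run of 47 bases, while the longest run that either shared with H2-M2 was 13 bases. The H2-M2 window held no match to any of the 4 motifs as spelled above. The B2m window held 1 match to the interferon regulatory factor spelling, and the Psmb8 window 1 match to that of the interferon-gamma activated site. Tap1 and Psmb9 face away from each other, their windows overlapped by 275 bases on opposite strands, and neither held any of the 4. Also searched, and not in capitals, were CCAAT (37.4% of windows) and TGACNNNGC (12.4%). TGACNNNGC occurred once in the windows of H2-K1 and of H2-M2 and in no other member's. CCAAT occurred in the windows of all 9 members but Psmb8 and Psmb10. A match is a description of letters in a window and not a site of binding. Only these spellings were searched, so a window without a match may hold another form of the same element.

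Each library held between 33616577 and 36817898 counts. Counts of Acod1 were 69 and 98 in WT vehicle, 6346 and 5908 in WT PM, and 1087 and 1688 in WT OI+PM, against 46 and 44, 3660 and 3271, and 812 and 871 in the libraries labelled Acod1-/-. The targeted gene was thus still counted in the libraries labelled Acod1-/-, at 0.57 times WT in PM-treated cells (edgeR quasi-likelihood test, adjusted p = 0.0807), and a count per gene does not show which exons the reads came from. The 8 macrophage markers examined were present in every library, with a summed level of 14278 to 14599 CPM (counts scaled to the size of the library by its normalization factor) in vehicle, 23189 to 27338 in PM and 14428 to 16637 in OI+PM libraries. Most of this sum was Lyz2, at 9084 to 21225 CPM over all libraries, so the sum does not show how the other markers moved. The lists of other cell types summed to at most 2.13 CPM in any library for T cells, 4.04 for B cells (nearly all from Cd79b), 0.711 for NK cells and 2.34 for fibroblasts, above 0 in every group, while Cd3e, Cd3g, Gzma, Prf1 and Lum had no count in any library. The 6 dendritic cell markers summed to 228 to 340 CPM, nearly all from Itgax, which macrophages also express, and each of the other 5 (Flt3, Zbtb46, Xcr1, Ccr7 and Clec9a) stayed at or below 0.601 CPM. That sum was 286 to 340 CPM in vehicle, 251 to 321 in PM and 228 to 270 in OI+PM libraries. The summed level of 6 neutrophil markers, of which 3 passed the filter, was 6.34 to 7.14 CPM in vehicle, 13.0 to 20.0 in PM and 29.4 to 61.0 in OI+PM libraries. S100a8 ran from 3.53 to 60.5 CPM over all libraries, while no other marker of this list went above 3.31 CPM. The part of these marker lists in the results was not tested. The 2 WT OI+PM libraries stood apart from each other: 148 genes differed at least 2-fold between them, against 4 to 38 within the other groups, and their difference followed gene length (Spearman's rho = 0.61 across 11214 genes, which are not independent). The same relation within the other groups was 0.60 in WT PM, 0.28 in WT vehicle, 0.29 in Acod1-/- OI+PM, -0.08 in Acod1-/- vehicle and -0.36 in Acod1-/- PM. Scaling to total counts without a normalization factor moved the median log2 change of all genes from 0.02 to -0.11 in WT OI+PM against PM, and from 0.02 and -0.01 to -0.20 and -0.15 in OI+PM against vehicle in WT and Acod1-/- cells. It also moved the share of higher genes among those called, from 50.8% and 50.1% to 34.9% and 37.1% for PM against vehicle in WT and Acod1-/- cells, and from 48.5% and 40.3% to 29.9% and 29.7% for OI+PM against PM. For OI+PM against vehicle that share went from 51.3% and 45.9% to 30.9% and 28.4%, and for Acod1-/- against WT in OI+PM from 36.1% to 53.4%. No member changed direction in a called comparison under this scaling.

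**Figure D1:**
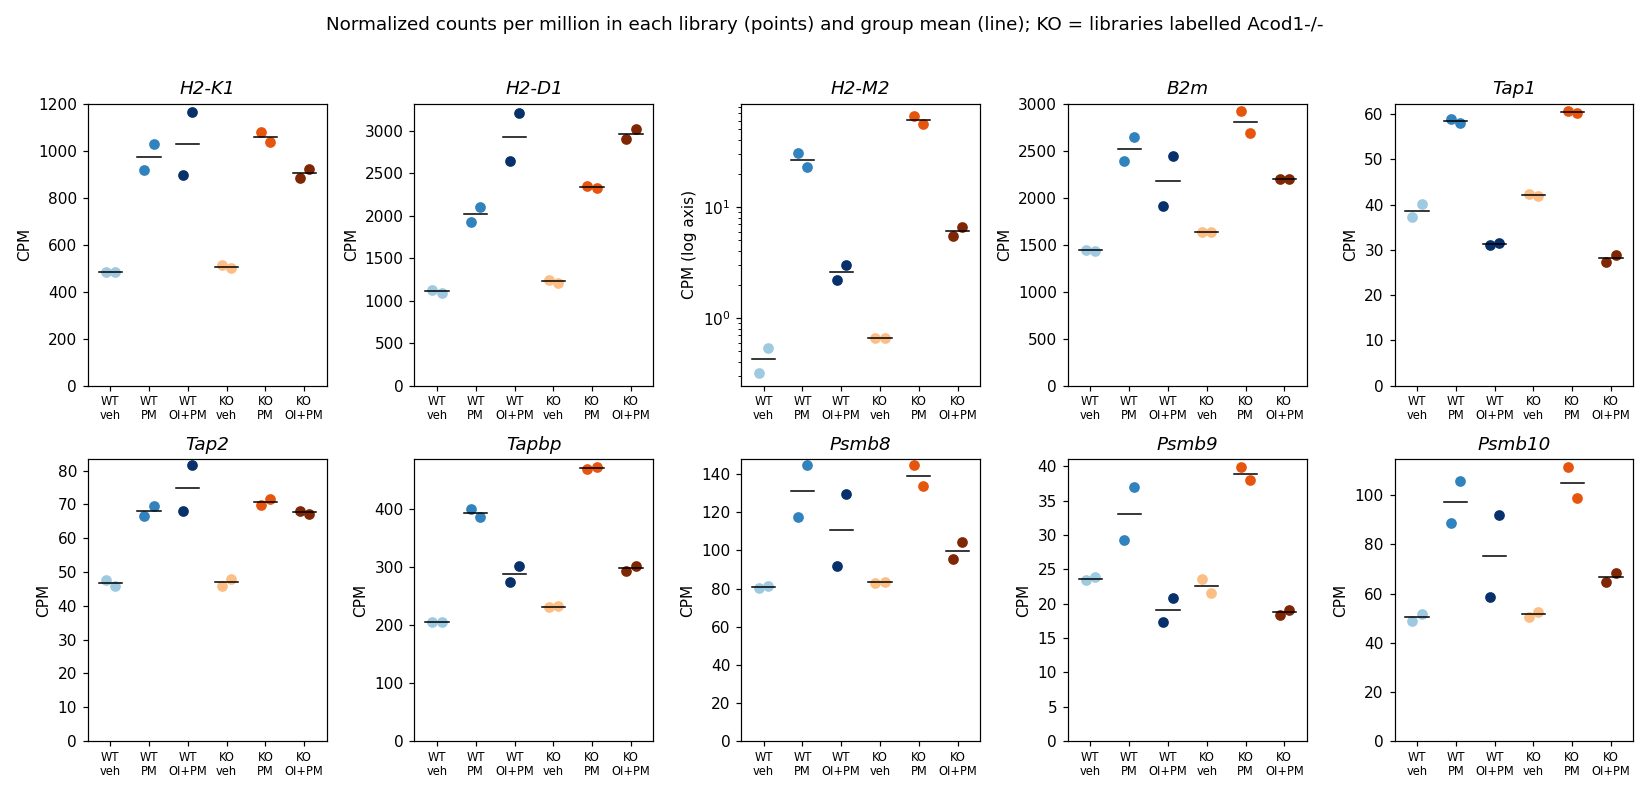
Normalised CPM of the 10 members in each of the 12 libraries (points) with the mean of each group of 2 (line), the axis of H2-M2 being logarithmic. Both PM groups lie above the vehicle group of the same genotype for every member, and H2-M2 spans 0.321 to 65.5 CPM.

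PM against vehicle asks how the particles changed BMDMs of each genotype. All 10 members, of which H2-M2 passed the filter only through PM-treated libraries, rose in WT cells and all 10 rose in Acod1-/- cells, by 1.40-fold to 61.8-fold and by 1.43-fold to 90.9-fold. Of all 11228 genes, 24.8% in WT and 23.9% in Acod1-/- cells passed in either direction at the same threshold, an adjusted p of 0.05 or less by edgeR's quasi-likelihood test. Those that rose numbered 1414 and 1344. The median change of the members was 0.83 and 0.86 on the log2 scale, beside 0.01 and -0.00 over all genes tested. With 2 libraries a group, and no label saying whether they came from separate animals or cultures, the p-values measure the spread between these libraries. In bulk RNA, more cells that express a gene cannot be told apart from more RNA per cell.

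H2-K1 and H2-D1 encode the classical class I heavy chains of these mice, and together took most of the reads of the class I family: 60.7 to 72.6% of the reads of 28 class I heavy chain genes fell on H2-D1 and 22.1 to 29.8% on H2-K1. H2-K1 was at 486 and 483 CPM in WT vehicle and at 918 and 1031 in WT PM, and at 513 and 501 against 1083 and 1039 in Acod1-/- cells. It rose by 1.01 (SE 0.11, adjusted p = 1.18e-04) and by 1.07 (SE 0.11, adjusted p = 6.70e-05) on the log2 scale, and the groups did not overlap. H2-D1 went from 1131 and 1087 CPM to 1929 and 2101 in WT cells (0.86, SE 0.085) and from 1247 and 1207 to 2350.5 and 2332 in Acod1-/- cells (0.93, SE 0.086). Of the 50-base sequences of their transcripts, 9.63% for H2-K1 and 12.8% for H2-D1 also occurred in transcripts of other genes, most of all in H2-Q10 and H2-Q1, so part of the reads of a 50-base run could not be placed on 1 paralogue. When the counts of H2-K1, H2-D1 and 25 other class I heavy chain genes were summed to 1 row, that sum rose by 0.90 in WT cells (SE 0.091, adjusted p = 8.37e-05) and by 0.96 in Acod1-/- cells (SE 0.091, adjusted p = 4.35e-05).

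H2-M2 is a nonclassical class I heavy chain of the M region. All 4 of its vehicle libraries lay below the filter of 1.5 CPM, so it entered the test through the PM-treated groups, and the filter favoured a higher value there. Its counts were 12 and 21 in WT vehicle and 1079 and 788 in WT PM, which is 0.321 and 0.535 against 30.8 and 22.7 CPM. In Acod1-/- cells 24 counts in each vehicle library stood against 2229 and 1926 in PM, or 0.656 and 0.666 against 65.5 and 55.4 CPM. The rises were 5.95 (95% interval 5.36 to 6.54, adjusted p = 3.78e-07) and 6.51 (5.96 to 7.06, adjusted p = 1.42e-07) on the log2 scale, which is 61.8-fold and 90.9-fold. H2-M2 shared 1.62% of its 50-base sequences with other genes. Per kilobase of exon it stayed far below the classical chains in PM-treated WT cells, at 17.3 RPKM (mean of 2) beside 332 for H2-K1 and 781 for H2-D1.

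B2m encodes the light chain that all these heavy chains need. It was at 1446 and 1437 CPM in WT vehicle and at 2398 and 2649 in WT PM, and in Acod1-/- cells at 1634 and 1638 against 2932 and 2698. It rose by 0.81 (SE 0.10) and 0.78 (SE 0.10). B2m had the highest level per kilobase of the 10 members, 1677 RPKM in WT vehicle, and none of its 50-base sequences occurred elsewhere.

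The peptide transporter and its docking partner rose too. Tap1 and Tap2 form the 2 chains of TAP. Tap1 was at 37.2 and 40.1 CPM in WT vehicle and at 58.9 and 58.1 in WT PM, a rise of 0.60 (SE 0.064), and its rise in Acod1-/- cells, from 42.4 and 41.8 to 60.7 and 60.2 CPM, was 0.52 (SE 0.064). Tap2 rose alongside by 0.54 (SE 0.085) and 0.59 (SE 0.085), from 45.9 to 48.0 CPM over the 4 vehicle libraries to 66.5 to 71.6 over the 4 PM libraries. Tapbp, the gene of tapasin, was at 205 CPM in both WT vehicle libraries and at 399 and 386 in WT PM, and went from 231 and 232 to 469 and 473 in Acod1-/- cells. Its rises of 0.94 (SE 0.059) and 1.02 (SE 0.059) had the smallest standard errors of the 10. Exons of Tap1 and Psmb9 overlap on opposite strands, exons of Tap2 overlap Gm15821 (533 bases) and Gm20496 (165), and exons of Tapbp overlap Gm19412 (904) and Zbtb22 (149), and exons of Psmb8 overlap Gm20496 (498). Whether counting used strand is not given in the sources used here, so reads in these stretches cannot be assigned with certainty.

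Among the immunoproteasome subunits Psmb10 had the largest point estimate. It went from 48.8 and 51.8 CPM to 88.8 and 105.7 in WT cells (0.95, SE 0.18, adjusted p = 0.00382) and from 50.6 and 52.5 to 111.7 and 98.7 in Acod1-/- cells (1.03, SE 0.18, adjusted p = 0.00209). Psmb8 went from 80.6 and 81.1 CPM to 117.7 and 144.7 in WT cells (0.70, SE 0.15, adjusted p = 0.00762) and from 83.0 and 83.7 to 144.8 and 133.7 in Acod1-/- cells (0.74, SE 0.15, adjusted p = 0.00495). Psmb9 had the smallest rise of the 10 in WT cells, from 23.5 and 23.9 CPM to 29.2 and 36.9 (0.48, SE 0.12, adjusted p = 0.0164), and rose from 23.6 and 21.6 to 39.9 and 37.9 in Acod1-/- cells (0.78, SE 0.12, adjusted p = 0.00102). The WT calls of Psmb8 and Psmb9 were lost without WT vehicle library 1 (adjusted p = 0.0594 and 0.105), without WT vehicle library 2 (0.0543 and 0.0833) and without WT PM library 2 (0.0634 and 0.136, with Psmb9 then at 0.30). At the stricter rule of a 2-fold change as well, H2-K1 and H2-M2 remained in WT cells and H2-K1, H2-M2, Tapbp and Psmb10 in Acod1-/- cells, beside 3.02% and 3.19% of all genes rising by that rule.

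**Figure D2:**
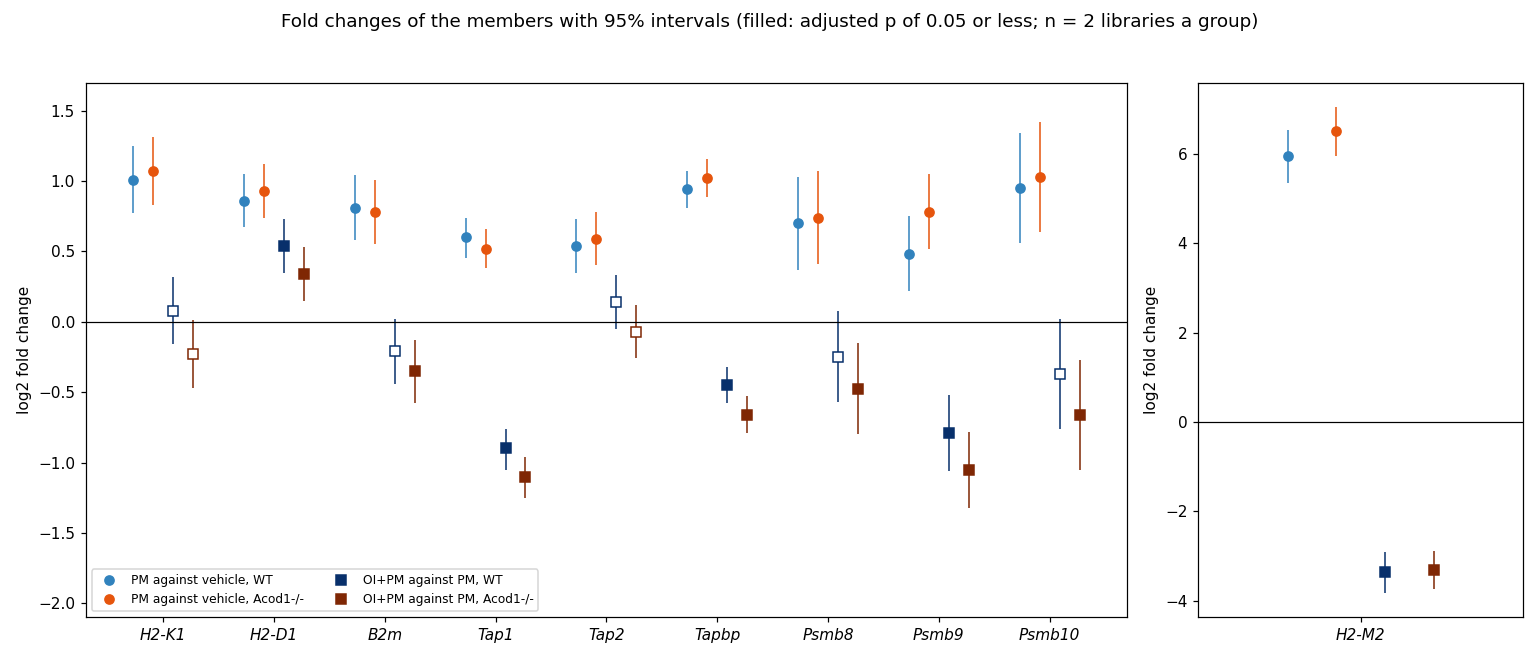
Log2 fold changes of the 10 members with 95% intervals, in circles for PM against vehicle and squares for OI+PM against PM, blue for WT and orange or brown for Acod1-/-, with H2-M2 on its own axis. Every circle lies above 0, and the squares of Tap1, Psmb9, Tapbp and H2-M2 lie below 0 in both genotypes while those of H2-D1 lie above.

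OI+PM against PM asks what the itaconate ester changed in particle-treated cells. Here the members went both ways, as all genes did. H2-D1 rose further in both genotypes, H2-M2, Tap1, Tapbp and Psmb9 fell in both, and H2-K1 and Tap2 did not pass the test in either. In WT cells 1 member rose and 4 fell, beside 21.3% and 22.6% of all genes, and in Acod1-/- cells 1 rose and 7 fell, beside 13.9% and 20.6%. In WT cells 5 of 10 members and 4926 of 11228 genes passed, so the number called there is not a result about the members. The median member changed by -0.31 and -0.57 on the log2 scale, against 0.02 and -0.00 over all genes. These comparisons and those of PM with vehicle share the PM libraries.

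H2-M2 fell the most. Its 74 and 89 counts in WT OI+PM, or 2.22 and 3.01 CPM, lay between the vehicle and the PM libraries, as did the 184 and 216 counts (5.53 and 6.65 CPM) in Acod1-/- OI+PM. It fell by 3.36 (SE 0.21, adjusted p = 6.90e-07) in WT cells and by 3.31 (SE 0.19, adjusted p = 3.72e-07) in Acod1-/- cells. With gene length corrected, or without any 1 of the 4 WT libraries compared, the WT change of H2-M2 was -3.59 to -3.13 and stayed past the threshold. H2-D1, the more abundant classical chain, stood at 2648 and 3215 CPM in WT OI+PM and at 2909 and 3020 in Acod1-/- OI+PM, above every PM library. It rose by 0.54 (SE 0.085, adjusted p = 5.98e-04) and 0.34 (SE 0.085, adjusted p = 0.0109). The WT change of H2-D1 was 0.39 to 0.67 under the same alternatives and passed in each. The Acod1-/- call was lost without Acod1-/- PM library 1 (0.0543), Acod1-/- PM library 2 (0.0620) or Acod1-/- OI+PM library 2 (0.0739), and the summed class I row rose by 0.36 in WT cells (adjusted p = 0.00997) but changed by 0.13 in Acod1-/- cells (adjusted p = 0.308). H2-K1 differed by 0.08 in WT cells (95% interval -0.16 to 0.32), where its OI+PM libraries, at 896 and 1168 CPM, lay below and above both PM libraries, and by -0.23 in Acod1-/- cells (-0.47 to 0.01, adjusted p = 0.129), where 887 and 923 CPM lay below both. That Acod1-/- difference passed with a correction for gene length (-0.24, adjusted p = 0.00756), without either WT OI+PM library (0.00793 and 0.00795) and with those 2 groups fitted alone (0.00101). In WT cells H2-K1 passed, at 0.26, without WT OI+PM library 1 (adjusted p = 0.00838).

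The 2 TAP chains had different values after OI. Tap1 dropped to 31.0 and 31.6 CPM in WT OI+PM and to 27.3 and 29.0 in Acod1-/- OI+PM, below every PM and every vehicle library. It fell by 0.90 (SE 0.065, adjusted p = 2.17e-06) and by 1.10 (SE 0.065, adjusted p = 5.49e-07), and its replicates in WT OI+PM differed little (-0.03 on the log2 scale). Tap2 stayed at 68.0 and 81.7 CPM in WT and 68.2 and 67.0 in Acod1-/- OI+PM libraries, with changes of 0.14 (95% interval -0.05 to 0.33) and -0.07 (-0.26 to 0.12). Tap2 passed in WT cells (0.26, adjusted p = 0.00663) without WT OI+PM library 1. Tapbp fell to 274 and 302 CPM in WT and 294 and 302 in Acod1-/- cells, by 0.45 (SE 0.059, adjusted p = 1.74e-04) and 0.66 (SE 0.059, adjusted p = 1.13e-05). With gene length corrected, or without any 1 of the 4 WT libraries compared, the WT changes of Tap1 (-0.92 to -0.89) and Tapbp (-0.52 to -0.38) passed.

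B2m was at 1911 and 2451 CPM in WT OI+PM, which overlaps the PM libraries, and at 2198 and 2206 in Acod1-/- OI+PM, which does not. Its change was -0.21 in WT cells (95% interval -0.44 to 0.02, adjusted p = 0.120) and it fell by 0.35 in Acod1-/- cells (adjusted p = 0.0218). With gene length corrected the WT change passed (-0.43, adjusted p = 2.51e-04), as it did without WT OI+PM library 2 (-0.40, adjusted p = 0.00103). The Acod1-/- call was lost without Acod1-/- PM library 1 (0.134), Acod1-/- OI+PM library 1 (0.101) or Acod1-/- OI+PM library 2 (0.0974).

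Psmb9 was the immunoproteasome subunit that fell in both genotypes. Its 17.4 and 20.9 CPM in WT and 18.4 and 19.1 CPM in Acod1-/- OI+PM libraries lay below every PM library and below every vehicle library, and it fell by 0.79 (SE 0.12, adjusted p = 5.02e-04) and 1.05 (SE 0.12, adjusted p = 7.53e-05), the WT change being -0.96 to -0.61 and past the threshold under the same alternatives. Psmb8 was at 91.8 and 129.4 CPM in WT OI+PM, the first below both PM libraries and the second between them, with a change of -0.25 (95% interval -0.57 to 0.08), and at 95.4 and 104.5 in Acod1-/- OI+PM, where it fell by 0.48 (adjusted p = 0.0284). Psmb10 was at 58.5 and 92.2 CPM in WT OI+PM, the widest gap between replicates of this subunit (-0.65 on the log2 scale), with a change of -0.37 (-0.76 to 0.02), and at 64.9 and 68.4 in Acod1-/- OI+PM, where it fell by 0.66 (adjusted p = 0.0147). With gene length corrected the WT changes of Psmb8 (-0.31, adjusted p = 0.0291) and Psmb10 (-0.53, adjusted p = 3.68e-04) passed, and without WT OI+PM library 2 they were -0.52 (0.00354) and -0.73 (3.15e-04). The Acod1-/- call of Psmb8 was lost without any 1 of the 4 libraries compared (adjusted p = 0.0689 to 0.163), and that of Psmb10 without Acod1-/- PM library 1 (0.0959), Acod1-/- OI+PM library 1 (0.0916) or Acod1-/- OI+PM library 2 (0.0636).

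Set against vehicle, cells given OI and PM had some members higher and others lower, and the parts of the 2 treatments in this cannot be told apart. In WT cells 8 members were higher than in vehicle and 2 lower, beside 33.6% and 31.9% of all genes. In Acod1-/- cells 6 were higher and 1 lower, beside 22.7% and 26.7%. H2-D1 was 2.64-fold and 2.42-fold above vehicle (adjusted p = 5.09e-07 and 1.08e-06), and H2-K1 2.13-fold and 1.79-fold. H2-M2, counted among the 8 and the 6, was still 6.00-fold and 9.16-fold above vehicle (adjusted p = 1.14e-04 and 6.88e-06). All its vehicle libraries lay below the filter of 1.5 CPM, so the filter favoured a higher value here as well. Tap1 was lower than in vehicle by 0.31 in WT (adjusted p = 0.00248) and by 0.58 in Acod1-/- cells (adjusted p = 4.59e-05). Tap2 was higher by 0.68 and 0.53, Tapbp by 0.49 and 0.36, and B2m by 0.60 and 0.43. With gene length corrected the B2m difference was 0.08 in WT (adjusted p = 0.280) and 0.16 in Acod1-/- cells (adjusted p = 0.0603). The changes of the immunoproteasome subunits were 0.45 for Psmb8 (adjusted p = 0.0208), -0.31 for Psmb9 (0.0464) and 0.58 for Psmb10 (0.0149) in WT cells. In Acod1-/- cells they were 0.26, -0.27 and 0.37 (adjusted p = 0.160, 0.0922 and 0.104). Without either WT OI+PM library the Acod1-/- changes passed for Psmb8 (adjusted p = 0.0255 and 0.0256), Psmb9 (0.0426) and Psmb10 (0.00402 and 0.00403). The WT call of Psmb9 was lost without any 1 of 9 libraries (adjusted p = 0.0608 to 0.222). The WT call of Psmb8 was lost without WT vehicle library 1 (0.0847), WT vehicle library 2 (0.0759) or WT OI+PM library 2 (0.177), and that of Psmb10 without WT vehicle library 1 (0.0808) or WT OI+PM library 2 (0.22 on the log2 scale, 0.111). The correction for gene length put the WT difference of Psmb10 at 0.20 (adjusted p = 0.0613), and the Acod1-/- difference of Psmb9 passed with it (-0.32, adjusted p = 0.0145). With total counts the WT differences of Psmb8 and Psmb10 were 0.22 and 0.35 (adjusted p = 0.146 and 0.0690). Fitted from the 2 WT groups alone, Tap1 (-0.32), Psmb8 (0.43), Psmb9 (-0.32) and Psmb10 (0.56) missed the threshold (adjusted p = 0.0535, 0.0869, 0.0850 and 0.0826).

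Acod1-/- against WT asks whether the genotype changed these genes at the same treatment. H2-M2 was the only member past the threshold. It was higher in the libraries labelled Acod1-/- by 1.18 in PM (95% interval 0.81 to 1.54, 2.26-fold, adjusted p = 0.00527) and by 1.23 in OI+PM (0.73 to 1.73, 2.34-fold, adjusted p = 0.0146), where 1.10% and 2.51% of all genes were higher. In vehicle the difference was 0.62 (-0.34 to 1.58, adjusted p = 0.806) on 12 to 24 counts a library. The PM call was lost without Acod1-/- PM library 1 (1.05, adjusted p = 0.0704), and the OI+PM call without Acod1-/- OI+PM library 1 (1.35, adjusted p = 0.0612) or library 2 (1.09, adjusted p = 0.112), or with the compared groups fitted alone (1.25, adjusted p = 0.203), where 2 of all 11228 genes passed. Tapbp was 0.26 higher in Acod1-/- PM libraries (0.13 to 0.39), at an adjusted p of 0.0510 in edgeR, 0.00170 in DESeq2 and 0.00731 with gene length corrected. In vehicle no member passed in edgeR (1 at an unadjusted p below 0.05, Tapbp) or in DESeq2, beside 1.83% of all genes. Fitted from the 2 vehicle groups alone, B2m, Tapbp and H2-D1 passed there (0.17, 0.17 and 0.13), in a fit that called 2316 of all 11228 genes. The other 8 members differed between genotypes by -0.19 to 0.24 on the log2 scale over the 3 treatments. H2-D1 in PM (0.22, adjusted p = 0.282) passed in 4 of 22 alternatives, among them the correction for gene length (0.26, adjusted p = 0.0114). With gene length corrected B2m was higher in Acod1-/- OI+PM libraries (0.26, adjusted p = 0.0243). Without WT OI+PM library 1, H2-K1 (-0.37, adjusted p = 0.00292), Tap2 (-0.27, 0.00878), Psmb8 (-0.37, 0.0162) and Psmb10 (-0.47, 0.00575) were lower in Acod1-/- OI+PM libraries, in a fit that called 3174 of all 11228 genes lower, so 4 of 10 is not a result about the members.

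The difference of the effects was tested itself. No member's PM effect and no member's OI effect differed between genotypes past the threshold in edgeR or in DESeq2, as held for all 11228 genes in edgeR (0% called). At an unadjusted p below 0.05 there were 0 members for PM and 1, Tapbp, for OI (-0.21, 95% interval -0.40 to -0.03, adjusted p = 0.759). The intervals were wide for H2-M2, -0.50 to 1.61 for PM and -0.56 to 0.66 for OI. The differences of the OI effect, none past the threshold, had a median of -0.21 over the members and -0.03 over all genes, and those of B2m, Psmb8, Psmb10 (highest values 0.05, 0.04 and 0.08) and H2-M2 (0.05, lowest value -0.17) changed sign under at least 1 alternative. For the PM effect the same held for H2-K1, B2m, Psmb8 and Psmb10. Without WT OI+PM library 1, 3 members passed for OI: Psmb10 (-0.58, adjusted p = 0.0457), H2-K1 (-0.49, 0.0320) and H2-D1 (-0.33, 0.0483), where 525 of all 11228 genes passed.

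Ratios of 2 genes within a library do not depend on how the library was scaled. Each immunoproteasome subunit was set against the constitutive subunit whose place it takes, and Tap1 against Tap2 and H2-D1 against H2-K1, pairs that were chosen with values of these genes known. Ratios are log2 of RPKM. Psmb8 to Psmb5 was -0.28 and -0.25 in WT vehicle, -0.30 and -0.32 in WT PM, and -1.14 and -1.32 in WT OI+PM. In Acod1-/- cells it was -0.18 and -0.20, then 0.02 and -0.03, then -0.81 and -0.83. Psmb9 to Psmb6 was lower after the same step, going from -3.69 and -3.70 in WT PM to -4.61 and -4.97 in WT OI+PM and from -3.28 and -3.22 to -4.33 and -4.29 in Acod1-/- cells. Psmb10 to Psmb7 was higher in PM (0.80 to 1.01 over 4 libraries) than in vehicle (0.15 to 0.25) and was 0.13 to 0.37 in OI+PM. Tap1 to Tap2 was -0.65 to -0.89 over the 8 vehicle and PM libraries and -1.67 to -1.91 over the 4 OI+PM libraries. H2-D1 to H2-K1 was 1.36 to 1.47 in vehicle, 1.21 to 1.35 in PM and 1.65 to 1.90 in OI+PM libraries. The ratios are given as a description, with no test, since the pairs were chosen with the values known and an exact permutation within genotypes cannot go below a p of 0.0556 here (36 relabellings). Tap1 to Tap2 and H2-D1 to H2-K1 restate the values of the single genes above. The mean differences of OI+PM from PM were -0.87 for Psmb8 to Psmb5, -1.08 for Psmb9 to Psmb6, -0.62 for Psmb10 to Psmb7, -1.04 for Tap1 to Tap2 and 0.52 for H2-D1 to H2-K1. Those of PM from vehicle were 0.07, 0.13, 0.70, -0.01 and -0.14 in the same order. For Psmb8 to Psmb5, Psmb9 to Psmb6 and Tap1 to Tap2 they average opposite directions in the genotypes. From vehicle to PM, the group mean of Psmb9 to Psmb6 went from -3.62 to -3.70 in WT and from -3.59 to -3.25 in Acod1-/- cells. That of Tap1 to Tap2 went from -0.81 to -0.75 and from -0.69 to -0.76. The genes of a pair differ in exon length, and the part of the length pattern between the 2 WT OI+PM libraries in these ratios was not tested.

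**Figure D3:**
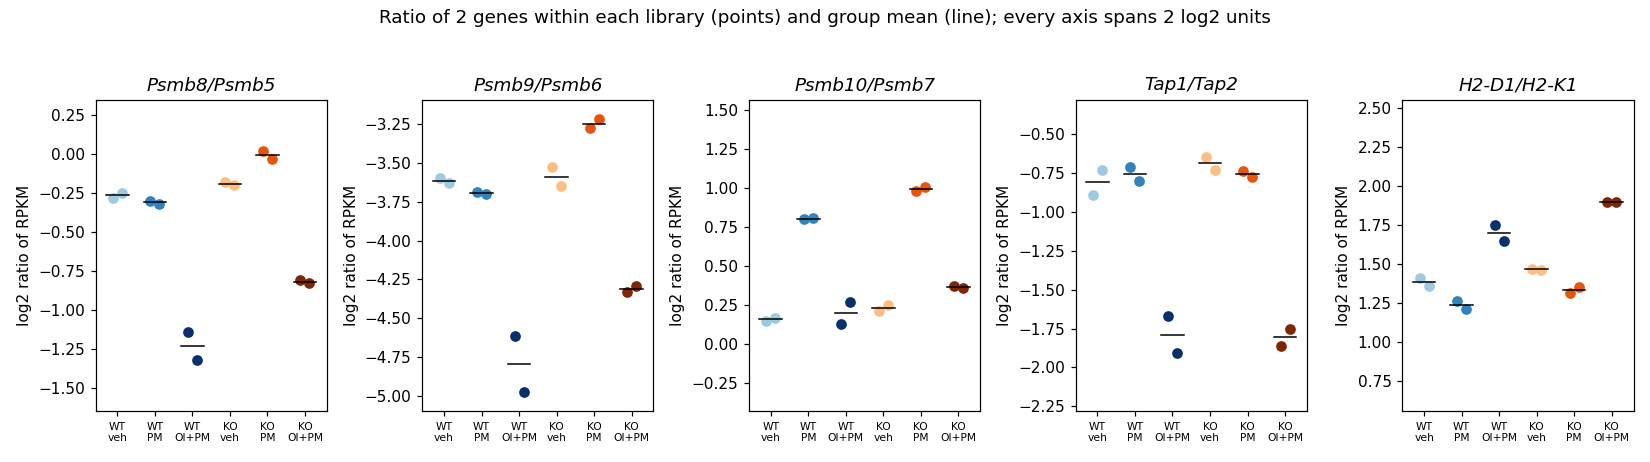
Log2 ratio of RPKM of 5 gene pairs within each library (points) and group mean (line), every axis spanning 2 log2 units. The 4 OI+PM libraries lie below the 4 PM libraries for the first 4 pairs and above them for H2-D1 to H2-K1.

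Among the constitutive subunits, Psmb5 and Psmb6 rose in WT PM (0.74 and 0.56, adjusted p = 0.0174 and 0.0398) and were 0.55 and 0.45 in Acod1-/- PM (adjusted p = 0.0561 and 0.0895), and Psmb7 changed by 0.30 and 0.27 without passing. Psmb5 rose again with OI in WT cells (0.69, adjusted p = 0.0117), with 53.8 and 85.8 CPM in the WT OI+PM libraries, and this call was lost without WT PM library 1 (0.53, adjusted p = 0.0850) while the change was 0.32 without WT OI+PM library 2. Of 10 proteasome activators and assembly factors, 2 rose with PM in each genotype, beside 1414 (WT) and 1344 (Acod1-/-) of all 11228 genes that rose. The 2 were Psme1 and Psme2, the PA28 activator chains known to work with the immunoproteasome. Psme2 rose by 1.10 and 1.14, and with OI its change was -0.36 in WT cells (adjusted p = 0.144) while it fell by 0.63 in Acod1-/- cells (adjusted p = 0.0253). Of the same 10 genes, 2 rose and 0 fell with OI in WT cells, beside 21.3% and 22.6% of all genes. In Acod1-/- cells 2 rose and 2 fell, beside 13.9% and 20.6%.

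The other class I heavy chain genes gave 9 testable genes of 25 listed. With PM 7 of these 9 rose in each genotype (1414 and 1344 of all 11228 genes rose), with a median change of 0.90 and 1.13. The 3 highest in CPM, H2-T23, H2-T22 and H2-Q4, rose by 0.79, 0.66 and 0.90 in WT cells and by 0.80, 0.82 and 1.13 in Acod1-/- cells. Per kilobase, H2-M3 stood above H2-T22 and H2-Q4 in WT vehicle (15.7 RPKM) and in WT PM (19.4 RPKM). H2-T23 encodes the Qa-1 molecule, a ligand of inhibitory receptors on NK cells. With OI 4 fell and 1 rose in WT cells, and 8 fell in Acod1-/- cells, beside 22.6% and 20.6% of all genes falling. H2-T24 fell the most, from 946 and 688 counts in WT PM to 100 and 74 in WT OI+PM (-3.08, adjusted p = 3.20e-07) and from 854 and 870 to 114 and 120 in Acod1-/- cells (-2.81, adjusted p = 4.79e-07). H2-K2, the riser in WT cells (1.22, adjusted p = 0.00112), was at 9.61 and 15.2 CPM in WT OI+PM (0.86, adjusted p = 0.00165, without WT OI+PM library 2) and differed by -0.00 in Acod1-/- cells (adjusted p = 0.991), and it shared 9.38% of its 50-base sequences with other genes. H2-Q6 and H2-Q7 are among these 7, but their vehicle libraries lay at 0.356 CPM and up, below the filter of 1.5, so the filter favoured a higher value with PM (H2-Q7 passed it only through PM libraries). Their values with PM were 1.46 to 1.96 above vehicle, and they shared 35.0% and 26.4% of their sequences with relatives, chiefly H2-Q7 and H2-Q10. With OI they changed by 0.13 and -0.59 in WT cells (adjusted p = 0.611 and 0.0802). In Acod1-/- cells they were lower by 1.63 and 1.06. The differences of these OI effects between genotypes did not pass (adjusted p = 0.146 and 0.820). All OI+PM libraries of H2-Q7 lay at 0.962 to 1.29 CPM, so the filter also favoured a lower value of H2-Q7 with OI. H2-Q7 is among the 8 that fell in Acod1-/- cells. Between genotypes in OI+PM, 3 of the 9 were lower in Acod1-/- libraries, beside 500 of all 11228 genes: H2-Q6 (-1.37, adjusted p = 0.0115), H2-K2 (-1.11, adjusted p = 0.0163) and H2-M3 (-0.44, adjusted p = 0.0436). The H2-Q6 and H2-K2 calls were lost without Acod1-/- OI+PM library 1 (adjusted p = 0.0847 and 0.149) or library 2 (0.105 and 0.0719), or with the compared groups fitted alone (0.203 and 0.316). H2-T22 shared 53.5%, mostly with H2-T10.

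**Figure D4:**
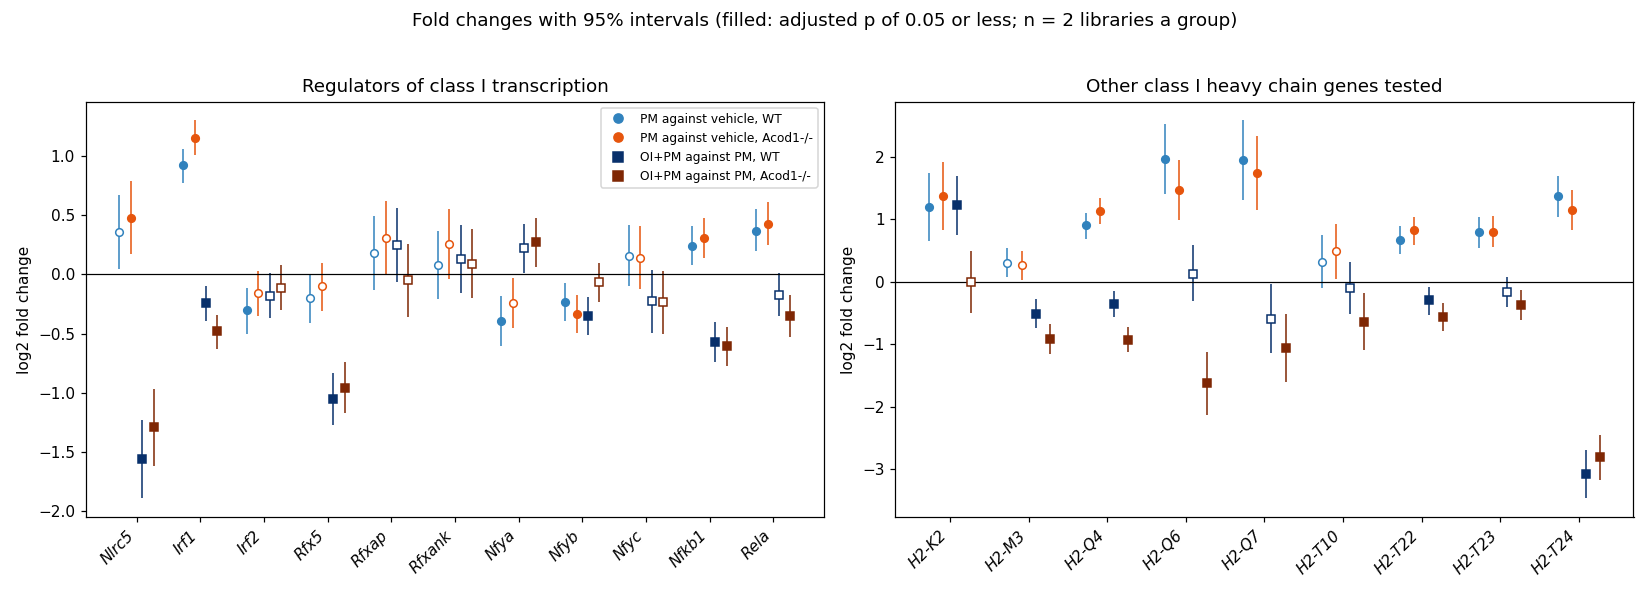
Log2 fold changes with 95% intervals of 11 regulators of class I transcription (left) and of the 9 other class I heavy chain genes tested (right), in circles for PM against vehicle and squares for OI+PM against PM, open where the adjusted p was above 0.05. Nlrc5, Rfx5 and H2-T24 lie below -0.9 with OI in both genotypes.

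Described here are 11 regulators of class I transcription, all tested. Irf1, an interferon-induced activator of class I genes, rose by 0.92 and 1.15 with PM and fell with OI by 0.24 and 0.48. Nlrc5, the class I transactivator, changed by 0.36 in WT (adjusted p = 0.0862) and rose by 0.48 in Acod1-/- cells with PM (adjusted p = 0.0328), and fell with OI by 1.56 and 1.29. Rfx5, a subunit of the X-box factor, fell with OI by 1.05 and 0.96 after changes of -0.20 and -0.10 with PM that did not pass. Nfkb1 and Rela, subunits of NF-kappaB, rose with PM (0.24 and 0.37 in WT, 0.31 and 0.43 in Acod1-/- cells), and Nfkb1 fell with OI by 0.57 and 0.60, while Rela changed by -0.17 in WT (adjusted p = 0.114) and fell by 0.35 in Acod1-/- cells. In all 3 rose and 3 fell with PM in WT cells, 4 rose and 1 fell in Acod1-/- cells, 5 fell with OI in WT cells, and 1 rose and 5 fell in Acod1-/- cells. Of all genes 24.8% and 23.9% passed with PM, and 22.6% and 20.6% fell with OI. The lower calls with PM were Irf2 (-0.30), Nfya (-0.39) and Nfyb (-0.23) in WT and Nfyb (-0.33) in Acod1-/- cells. Nfyb also fell with OI in WT cells (-0.35), and Nfya rose with OI in Acod1-/- cells (0.27). Irf2, Rfxap, Rfxank and Nfyc did not pass in either OI comparison.

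Other parts of the pathway moved unevenly. Of 9 further peptide-loading factors, 5 rose with PM in each genotype (Hspa5, Pdia3, Calr, Prkcsh and Tapbpl, by at least 0.37), beside 1414 and 1344 of all 11228 genes. With OI 5 fell in WT and 2 in Acod1-/- cells, by 0.23 to 0.37, beside 22.6% and 20.6% of all genes. Tapbpl, a relative of tapasin that edits peptides, was the only one of the 9 called at a 2-fold change, in Acod1-/- cells (adjusted p = 1.16e-05). Of 7 cytosolic peptidases, which trim or destroy peptides, Npepps rose with PM in Acod1-/- cells (0.39, adjusted p = 0.0258) and stood at 0.26 in WT cells (adjusted p = 0.0981), and the other 6 did not pass in either. With OI 1 of the 7 rose in WT and 2 in Acod1-/- cells, beside 21.3% and 13.9% of all genes. Between genotypes 1 was lower in Acod1-/- libraries in each of vehicle, PM and OI+PM, beside 105, 146 and 500 of all 11228 genes. Of 7 class I-like genes outside the complex, 5 were tested. Procr, the endothelial protein C receptor, rose with PM by 2.67 and 2.59 and again with OI by 2.06 and 1.97. Cd1d1, which presents lipids, rose with PM by 1.10 and 1.33, and Hfe, the iron-regulating relative, fell with OI by 1.01 and 0.91. Fcgrt, the neonatal Fc receptor, fell with PM by 0.39 (adjusted p = 0.0490) and 0.49 (adjusted p = 0.0197).

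Across the 12 libraries, the genes whose log2 CPM most resembled each member's were sought among 9562 other genes with a mean of at least 5 CPM. The values of Pearson's r are descriptions, since the libraries share treatments. H2-M2 was most like Fpr1 (0.989), F7 (0.989) and Slamf8 (0.983). Tap1 was most like the interferon-induced genes Ifi211 (0.992) and Oas1a (0.992), followed by Phf11d (0.990). Psmb8 and Psmb10 had the same first 3, Psme1 (0.991 and 0.989), Psme2 (0.984 and 0.987) and Psmd10 (0.983 and 0.984), all proteasome genes, whereas Psmb9 was most like Ptpn6 (0.986), Ensa (0.977) and Rnpep (0.975). H2-D1 was most like the heat shock gene Hspa1a (0.996), then Pdlim4 (0.994) and Hspa1b (0.991), and H2-K1 like Znrf1 (0.997), Prdx5 (0.994) and Ncf4 (0.994). Znrf1 (0.989) and Ncf4 (0.985) were also among the first 3 of Tap2, after Lmo4 (0.991). B2m was most like Nt5c3 (0.989), the class I gene H2-T23 (0.988) and Cd302 (0.979), and Tapbp like Ralgds (0.992), Nfkb2 (0.990) and Il2rg (0.987).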

How the data were processed

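The deposited files hold raw counts of reads per gene, made by the authors from 50-base single-end reads of 12 BMDM libraries on GRCm38. The submitters' processing notes name FastQC 0.11.5, STAR 2.5.3a, Picard 2.9.0, featureCounts and DESeq2. The strand setting and the handling of reads that fit several genes are not given in the sources used here. Identifiers were matched to GENCODE M21 symbols (48435 of 48795).

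From the counts, genes with CPM above 1.5 in at least 2 libraries were kept, scaled by TMM and fitted over all 6 groups with edgeR 4.0.16 (quasi-likelihood test, R 4.3.3, limma 3.58.1), with Benjamini-Hochberg adjustment over all 11228 genes and a threshold of 0.05. The 2-fold rule asked for both. RPKM used exonic length. Members and gene lists were chosen with earlier results of these data known. All members were named, with Acod1, Psmb5, Psmb6, Psmb7, the regulators, the 3 other class I genes highest in CPM, listed genes that changed at least 2-fold past the threshold, and for each member the 3 genes of largest Pearson's r (log2 CPM, prior count 2). A few further genes of small lists were named after their values were seen. Alternatives were DESeq2 1.42.0, RLE and total-count scaling, other filters, a correction for gene length, a replicate block, the compared groups alone, summed class I counts and leaving out each library. Totals of 33616577 to 36817898 counts set the counting precision, which reads without molecular identifiers overstate. A regulator and a cell type marker of the lists are not reported here.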

Additional observations from a re-analysis of the deposited data

Results flagged for a closer look

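Tapbpl, a relative of tapasin, was flagged because its OI+PM libraries did not overlap its PM libraries and differed in opposite directions in the genotypes. Its level was 28.1 and 28.4 CPM in WT PM and 29.5 and 31.5 in WT OI+PM, both higher, against 35.8 and 32.5 in Acod1-/- PM and 31.1 and 31.5 in Acod1-/- OI+PM, both lower. The effects were 0.11 (adjusted p = 0.271) and -0.13 (adjusted p = 0.233) on the log2 scale, and neither passed. Their difference of -0.24 did not pass the interaction test in edgeR (adjusted p = 0.774). The share of all genes that the same rule would flag is not given here, so the flag does not set Tapbpl apart from other genes.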

How the results depend on the processing

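Counts of members past the threshold were 10 and 10 for PM against vehicle (WT, Acod1-/-), 5 and 8 for OI+PM against PM, 10 and 7 for OI+PM against vehicle, 0, 1 and 1 for Acod1-/- against WT in vehicle, PM and OI+PM, and 0 and 0 for the differences of the PM and OI effects. With each library left out in turn these ran from 8 to 10, 10 to 10, 5 to 8, 4 to 9, 7 to 10, 7 to 10, 0 to 0, 0 to 3, 0 to 5, 0 to 0 and 0 to 3. Of all 11228 genes 1187 to 5052, 1391 to 4467, 3661 to 6770, 2687 to 5028, 5615 to 8324, 3865 to 6894, 52 to 394, 74 to 698, 95 to 5452, 0 to 0 and 0 to 525 passed in the same fits. Asking also for a 2-fold change left 2, 4, 1, 3, 3 and 2 in the first 6, beside 466, 505, 1211, 1104, 1808 and 1475 of all genes. Total counts without a factor gave 8 for WT OI+PM against PM and 2 for the genotypes in PM, where 4730 and 269 of all genes passed. The correction for gene length, alone or with the replicate block, gave 8 for WT OI+PM against PM, 3 for the genotypes in PM and 2 in OI+PM. Of all 11228 genes, 5813, 590 and 1724 passed there with the correction alone, against 4926, 269 and 782 without it. With the correction alone 8 and 7 members passed for OI+PM against vehicle (WT, Acod1-/-), where 7512 and 6258 of all genes did. The compared groups alone gave 6 for WT OI+PM against vehicle, 3 for the genotypes in vehicle and 0 in OI+PM, where 5085, 2316 and 2 of all genes passed. DESeq2 and RLE size factors each gave 2 for the genotypes in PM (434 and 270 of all genes), and the filter on all libraries, under which H2-M2 was not tested, gave 0 in OI+PM, where 601 of 10031 genes passed. In WT OI+PM against vehicle, Nfkb1 turned from -0.33 to 0.04 with gene length corrected, with or without the block, and Rela from 0.21 to -0.02 with total counts. The causes were not tested.

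The replicate block alone changed no member call, with counts of 10, 10, 5, 8, 10, 7, 0, 1, 1, 0 and 0. Deviations of same-numbered libraries correlated at 0.73 for WT PM and OI+PM, 0.23 and 0.24 for WT vehicle with WT PM and OI+PM, -0.09 to -0.04 within Acod1-/- and -0.41 to 0.25 across genotypes. Not every pair of groups was above 0.1, so the numbers were not taken as pairs. The block set 1 shift between the numbers for all 6 groups, so a pairing of WT PM with WT OI+PM libraries alone was not tested. With Acod1-/- PM numbers exchanged, 2 members passed between genotypes in PM, beside 394 of all genes.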
